A study of Mus musculus with 6 samples.

Results

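Iron and heme handling was described here through 9 genes, *Hmox1*, *Blvrb*, *Slc40a1*, *Slc11a1*, *Tfrc*, *Fth1*, *Ftl1*, *Steap3* and *Steap4*, in 2 subsets of tumor-associated macrophages (TAMs). The genes were taken by symbol, and each of the 9 was found once among the 23424 genes of all 6 libraries and passed the filter of 10 counts summed over the libraries. The tumors were YUMM1.7, a cultured mouse melanoma line, grown in the skin of untreated, wild-type C57Bl/6J females that were 8 weeks old when tumors were started. At day 21, live CD45+CD11b+ cells, negative for a lineage mix by the study's methods, were sorted by their surface F4/80, a macrophage protein encoded by *Adgre1*, into F4/80high and F4/80low TAMs. Tumors were pooled in each of 3 independent experiments, and each experiment gave 1 poly-A library of each subset. Libraries of the same replicate number were taken to come from the same pool, which the sample labels do not state. A library therefore averages the animals of its pool, and the spread between animals was not measured. The F4/80low gate is defined by a lower level of 1 surface protein, so markers of other myeloid cells are given beside the results they move with. The lineage antibodies are not itemized for this sort, but T, B and NK cell antibodies and Ly6G, a neutrophil antigen, were among those with one shared dye, and such a gate would remove those cells.

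Macrophages take up iron bound to transferrin and recover it from the heme of engulfed red blood cells. Heme is opened by heme oxygenase 1 (*Hmox1*) to biliverdin, carbon monoxide and iron, and the biliverdin reductases *Blvra* and *Blvrb* reduce bile pigments and, for *Blvrb*, flavins. Transferrin-bound iron enters through the transferrin receptor (*Tfrc*), is reduced by STEAP-family metalloreductases and leaves the endosome through divalent metal transporters, of which *Slc11a1* (Nramp1) serves the phagosome. Iron is stored in ferritin, a shell of heavy (*Fth1*) and light (*Ftl1*) chains, or is exported through ferroportin (*Slc40a1*). Laboratory C57BL/6 mice carry a loss-of-function form of Slc11a1, so its RNA level says nothing about transport in these animals.

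Several of these mRNAs carry an iron-responsive element, a hairpin bound by iron regulatory proteins when iron is low, which blocks translation from a 5′ site and stabilizes the mRNA at a 3′ site. The sites are shown because they link storage, export and uptake genes that these libraries measured together. GENCODE M21 transcripts were searched on the sense strand for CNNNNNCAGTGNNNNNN, where the last loop base is not G and the 5 bases on either side of the loop pair, G with T included. Each site is written 5′ to 3′ as DNA letters over 29 bases, with the 6 bases of the loop in capitals.
*Fth1* 5′ UTR: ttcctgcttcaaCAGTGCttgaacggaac
*Ftl1* 5′ UTR: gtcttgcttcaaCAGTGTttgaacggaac
*Slc40a1* 5′ UTR: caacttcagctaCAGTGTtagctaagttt
*Tfrc* 3′ UTR, site 1: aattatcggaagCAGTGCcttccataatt
*Tfrc* 3′ UTR, site 2: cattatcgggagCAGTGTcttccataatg
*Tfrc* 3′ UTR, site 3: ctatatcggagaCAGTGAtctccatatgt
*Tfrc* 3′ UTR, site 4: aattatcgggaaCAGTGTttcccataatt
The *Fth1* site lies in exon 1 at chr19:9982732-9982760 on the plus strand of GRCm38, and the *Ftl1* and *Slc40a1* sites lie in exon 1 at chr7:45459779-45459807 and chr1:45925465-45925493 on the minus strand. The 4 *Tfrc* sites lie in exon 19, the last exon, at chr16:32631219-32631247, chr16:32631598-32631626, chr16:32631663-32631691 and chr16:32631710-32631738 on the plus strand. Of the 9 genes, these 4 held a match in a UTR. Elements that depart from the searched loop or pairing would not have been found, so the sites listed may not be all. The same letters and pairing were found in a 5′ UTR of 23 of 20916 genes (0.11%) and in a 3′ UTR of 100 of 21039 genes (0.475%). A match is a description of the sequence, and RNA levels do not measure translation.

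The 4 libraries of replicates 1 and 2 held between 30292061 and 43604373 counts, and the 2 libraries of replicate 3 stood apart. The study drew replicates 1 and 2 as batch 1 and replicate 3 as batch 2. Its libraries held 16045281 and 16204810 counts, with 89.4% and 90.0% of them on protein-coding genes, against 97.4% to 98.1% in batch 1. Levels are given as counts-per-million (CPM) scaled by the trimmed mean of M values (TMM), in the order of replicates 1, 2 and 3. *Adgre1*, the gene of the sorted antigen, measured 273, 539 and 360 CPM in F4/80high and 243, 326 and 183 CPM in F4/80low, higher in F4/80high in each pair. Of 12 macrophage markers all were tested, among them *Cd68* and *Csf1r*, and their summed level was 8776 to 30679 CPM in F4/80high and 8665 to 13879 in F4/80low. All 12 neutrophil markers were also detected, at a summed 752 to 2146 CPM in F4/80high and 1532 to 4902 in F4/80low, and each had a negative log2 fold change. The T and NK cell markers summed to 1756 CPM in F4/80high replicate 1 and to 143 to 857 in the other 5 libraries.

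None of the 9 genes was called different between F4/80high and F4/80low TAMs (edgeR's quasi-likelihood test with a batch term, with calls at 0.05 on the adjusted p and at more than 1 on the log2 fold change in size). That fit called 0% of the 14776 genes tested. DESeq2 with the same terms called 150 genes (1.15% of the 13057 to which it gave an adjusted p) and 0 of the 9. At an unadjusted p under 0.05 edgeR counted 0 of the 9 against 7.57% of all genes. *Blvrb*, *Tfrc*, *Ftl1* and *Steap3* were higher in F4/80high in 3 of 3 pairs (4 of 9, or 44.4%, where 16.0% of all genes were so). *Slc40a1* and *Steap4* were lower in F4/80high in 3 of 3 pairs (2 of 9, or 22.2%, where 15.7% of all genes were so), and *Hmox1*, *Slc11a1* and *Fth1* had pairs of either direction. The median log2 fold change was 0.31 over the 9 genes and 0.0089 over all genes tested, and the median absolute value was 0.59 against 0.35. In bulk RNA, fewer cells of a type and less RNA per cell cannot be told apart.

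With the replicate block, which compares the subsets within each pool, edgeR called 1 of the 9 genes, *Steap4*, where it called 76 of all genes (0.514%). *Blvrb* and *Steap4* had an unadjusted p under 0.05 in that fit, 2 of 9 where 9.84% of all genes did. *Cd163*, *Hp* and *Lcn2* were the called genes among the other iron and heme genes.

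**Figure D1:**
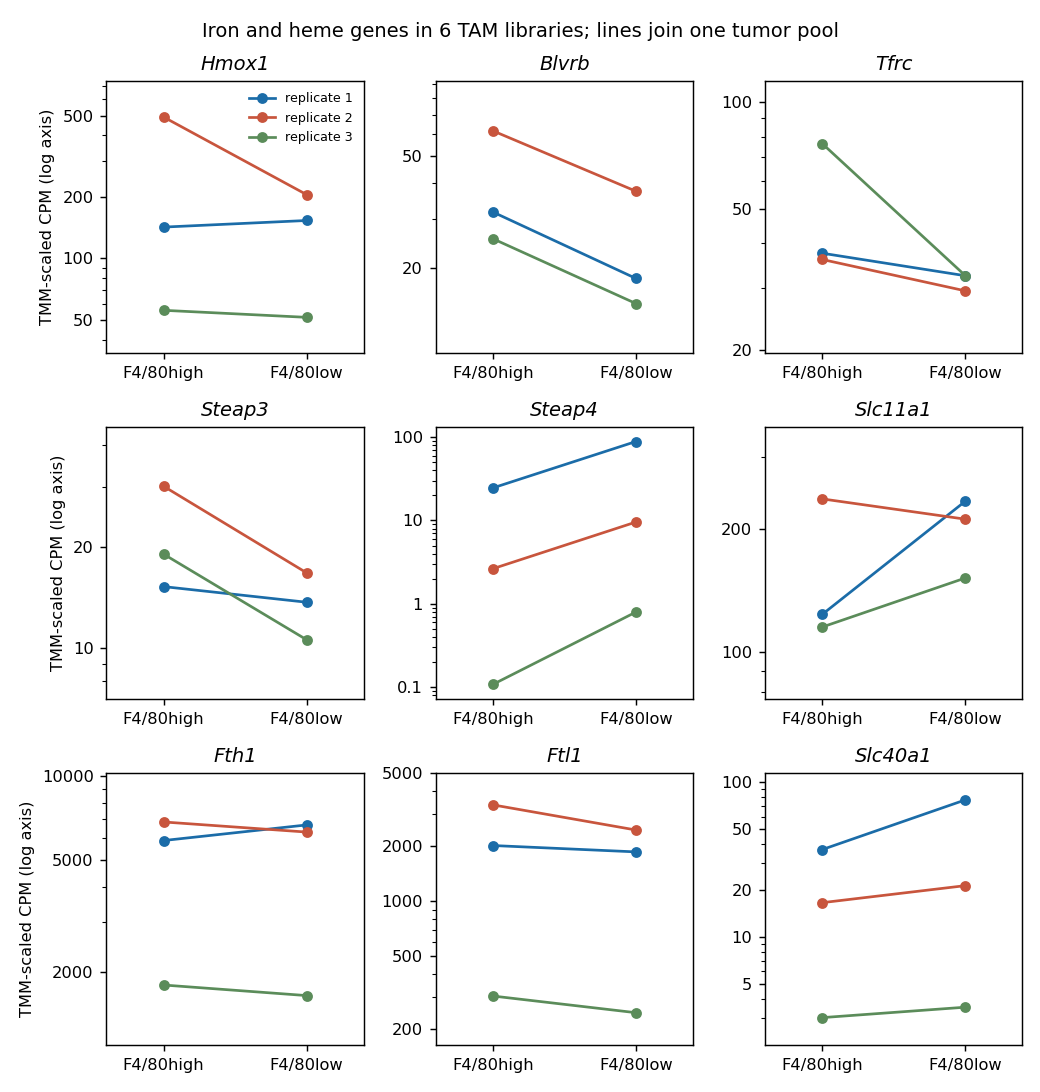
TMM-scaled CPM (log axis, one scale per panel) of each of the 9 genes in F4/80high and F4/80low libraries; each line joins the 2 libraries of one tumor pool. The *Blvrb* lines run parallel, the *Steap4* lines are all higher at F4/80low, over a range from 0.108 to 88.6 CPM, and the replicate 3 pair lies lowest in both subsets for *Hmox1*, *Blvrb*, *Slc11a1*, *Fth1*, *Ftl1*, *Slc40a1* and *Steap4*.

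*Hmox1* (chr8:75093621-75100589) cleaves heme. It measured 142, 492 and 55.7 CPM in F4/80high and 153, 205 and 51.5 CPM in F4/80low. F4/80high replicate 2 stood above the other 5 libraries, and the subsets overlapped. The pair ratios of F4/80high to F4/80low were 0.928, 2.40 and 1.08, and edgeR gave a log2 change of 0.59 ± 0.42 (SE, adjusted p = 0.748). Without F4/80high replicate 2 that fit, which kept the F4/80low library of the same pool, gave -0.18, and the log2 ratios of the other 2 pairs were -0.11 and 0.11. F4/80high replicate 2 was also highest in the summed macrophage markers, at 30679 CPM against 8665 to 13879 in the others. Of that sum *Lyz2* alone held 16106 CPM, against 2042 to 6482 in the others. *Cd68*, a lysosomal macrophage protein, was highest there too, at 1117 CPM against 192 to 504. The part of macrophage content in the *Hmox1* level was not tested. The 10 erythroid markers, of which 9 were tested and *Rhag* was near 0, summed to 18.0, 70.5 and 13.7 CPM in F4/80high and 18.7, 126 and 24.1 CPM in F4/80low, highest in the replicate 2 pair, which also held the 2 highest *Hmox1* levels. Their part in the result was not tested.

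*Blvrb* (chr7:27447978-27466144), a biliverdin and flavin reductase, had the most even difference. It measured 31.7, 61.4 and 25.5 CPM in F4/80high and 18.4, 37.5 and 15.0 CPM in F4/80low. Levels differed between pools, so the subsets overlapped, but within each pool F4/80high was higher by nearly the same factor. The pair ratios were 1.72, 1.64 and 1.70, and the 3 log2 ratios had an SD of 0.037. The replicate 3 ratio came from 236 counts in F4/80high and 132 in F4/80low. No counting interval was computed for *Blvrb*, so how far counting error allows ratios this close was not tested. A log2 change of 0.74 ± 0.35 was fitted (SE, edgeR, adjusted p = 0.687), and with the replicate block 0.75 ± 0.23 (adjusted p = 0.289). *Blvrb* was therefore not called in either fit. With the batch term, leaving out F4/80high replicate 2 gave 0.39 and leaving out F4/80low replicate 2 gave 1.09. Each of these fits kept the partner library, so the level of its pool enters the value.

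The other heme breakdown genes were *Blvra*, the main biliverdin reductase of adults, and *Hmox2*, the constitutive heme oxygenase. *Blvra* measured 50.1, 102 and 31.6 CPM in F4/80high and 31.1, 53.7 and 26.5 CPM in F4/80low, higher in F4/80high in 3 of 3 pairs (log2 fold change 0.65 ± 0.34 SE, edgeR, adjusted p = 0.699). *Hmox2* measured 47.2, 76.4 and 13.9 CPM against 45.5, 58.5 and 25.2, with a log2 fold change of -0.096 ± 0.32 (SE). Both reductases were thus above F4/80low in each pool, and neither oxygenase was.

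*Tfrc* (chr16:32608920-32632794) encodes the receptor for transferrin-bound iron, and it was the only one of the 9 genes whose subsets did not overlap. It measured 37.5, 36.0 and 76.4 CPM in F4/80high and 32.4, 29.4 and 32.5 CPM in F4/80low. F4/80low was even across pools, and F4/80high replicate 3 stood above the other 5 libraries. Of all genes tested, 2.27% had no overlap with F4/80high above. The pair ratios were 1.16, 1.23 and 2.36, and edgeR gave a log2 change of 0.57 ± 0.27 (SE, adjusted p = 0.683; exact permutation test on log2 CPM, two-sided p = 0.1, the smallest that 3 against 3 allow). In batch 1 alone it was 0.25 ± 0.29 (SE), and the log2 ratio of the replicate 3 pair was 1.24. Scaled by library size alone, the levels were 50.4, 43.5 and 49.4 CPM in F4/80high and 40.0, 37.8 and 19.5 CPM in F4/80low, still without overlap, with F4/80low replicate 3 now the library apart. *Tfrc* is known to rise in dividing cells. The 8 cycling markers summed to 246, 396 and 265 CPM in F4/80high and 205, 293 and 245 CPM in F4/80low, with 7 of 8 positive log2 fold changes. Their sum was highest in F4/80high replicate 2. On that list, *Mki67* measured 48.5, 77.3 and 86.4 CPM against 46.7, 72.3 and 45.2, highest in F4/80high replicate 3. *Top2a* measured 58.3, 80.4 and 136 CPM against 46.8, 58.2 and 144. The melanoma markers, 4 of 7 found and 3 tested, summed to 19.5, 23.3 and 168 CPM against 15.2, 13.1 and 106, higher in F4/80high in each pair and highest in F4/80high replicate 3 as *Tfrc* was. Nearly all of that sum was *Mitf*, which macrophages also express, at 16.5, 21.5 and 167 CPM against 13.3, 11.4 and 104, while *Pmel* and *Sox10* lay at or below 1.81 CPM and *Mlana* had 1 count in all. The part of either list in the *Tfrc* difference was not tested.

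*Steap3* (chr1:120190757-120272705) encodes the endosomal ferrireductase that works beside the transferrin receptor in red cell precursors. It measured 15.2, 30.2 and 19.0 CPM in F4/80high and 13.7, 16.7 and 10.6 CPM in F4/80low. F4/80high was above F4/80low in each pool, by ratios of 1.11, 1.81 and 1.79, although replicate 1 of F4/80high was under replicate 2 of F4/80low. A log2 change of 0.66 ± 0.33 was fitted (SE, edgeR, adjusted p = 0.691). Without F4/80high replicate 2, with its F4/80low partner kept, it was 0.32, while the log2 ratios of pairs 1 and 3 were 0.15 and 0.84.

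*Steap4* (chr5:7960457-7982213), a plasma membrane metalloreductase that is induced in inflammation, was lower in F4/80high in each pool. It measured 24.6, 2.64 and 0.108 CPM in F4/80high and 88.6, 9.58 and 0.797 CPM in F4/80low. Both subsets were highest in replicate 1, and F4/80high replicate 1 lay above F4/80low replicate 2, so the subsets overlapped. F4/80low exceeded F4/80high 3.60-fold (95% counting interval 3.36 to 3.87) in replicate 1 and 3.63-fold (2.98 to 4.45) in replicate 2. In replicate 3 the ratio was 7.38 (0.948 to 333), from 1 count in F4/80high and 7 in F4/80low. These exact intervals cover counting error only.

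With the batch term the log2 fold change of *Steap4* was -1.93 ± 1.00 (SE, edgeR, adjusted p = 0.699), and with the replicate block it was -1.92 ± 0.31 (adjusted p = 0.0448), past the threshold. The call thus required the comparison within pools. Without F4/80low replicate 1 the batch fit gave -0.25, and without F4/80high replicate 1 it gave -4.11, each time with the partner library kept. The neutrophil markers, summed, measured 2146, 934 and 752 CPM in F4/80high and 4902, 3136 and 1532 CPM in F4/80low. Like *Steap4*, they were highest in replicate 1 in both subsets and lower in F4/80high in each pool, by a log2 ratio of -1.19, -1.75 and -1.03. The 8 dendritic cell markers summed to 315, 75.8 and 84.5 CPM against 517, 176 and 142, with 7 of 8 negative log2 fold changes. All 6 mast cell and basophil markers had a negative log2 fold change and summed to 77.1, 5.51 and 5.29 CPM against 91.0, 19.0 and 16.7, highest in replicate 1 as *Steap4* was. All 8 eosinophil markers had one as well, with a median of -1.58, and summed to 177, 90.4 and 113 CPM against 371, 604 and 252. The part of these cell types in the *Steap4* difference was not tested.

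The 2 metalloreductases therefore differed in direction within every library pair. Set against each other per kilobase, which removes the scaling between libraries, *Steap3* stood at 0.342, 6.32 and 97.2 times *Steap4* in F4/80high and at 0.0853, 0.964 and 7.33 times in F4/80low. The ratio was 4.01, 6.56 and 13.2 times as high in F4/80high in replicates 1, 2 and 3. This ratio was chosen after its values were seen and was not tested, and in replicate 3 it rests on the 1 and 7 *Steap4* counts.

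*Slc11a1* (chr1:74375195-74386062), the phagosomal metal transporter, had pools of either direction. It measured 124, 237 and 115 CPM in F4/80high and 234, 211 and 152 CPM in F4/80low. F4/80low was higher in replicates 1 and 3 and F4/80high in replicate 2. A log2 change of -0.33 ± 0.27 was fitted (SE, edgeR, adjusted p = 0.792). Leaving out F4/80high replicate 2, with its F4/80low partner kept, gave -0.69, while the log2 ratios of pairs 1 and 3 were -0.92 and -0.40. With TMM scaling its levels spanned a factor of 2.06 over the 6 libraries, the narrowest range of the 9 genes. Scaled by library size alone they ran from 74.3 to 288 CPM, in proportion a wider range than that of *Tfrc*, 19.5 to 50.4 CPM.

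**Figure D2:**
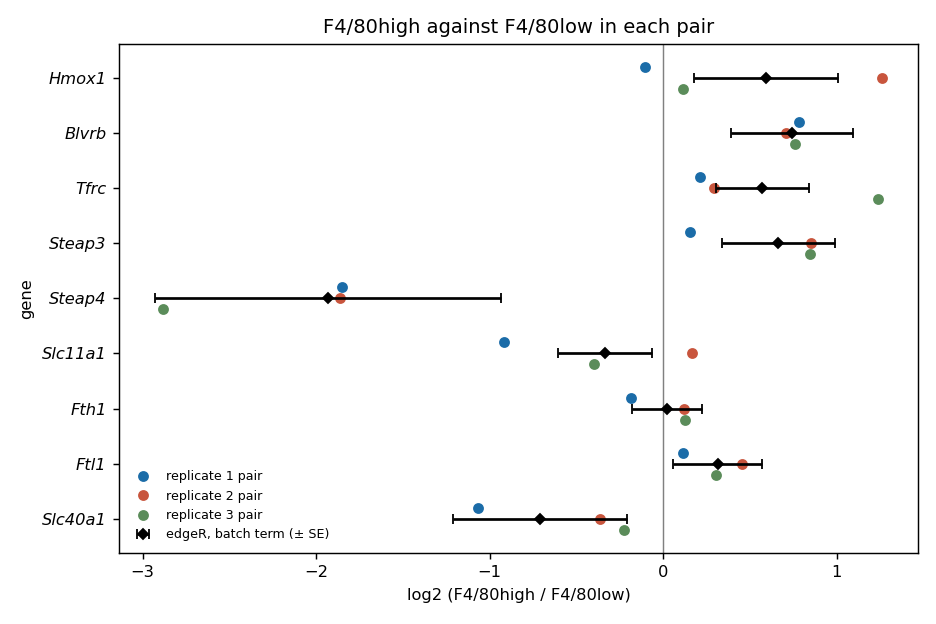
Log2 ratio of F4/80high to F4/80low for each of the 9 genes (x axis), as colored points for the 3 pairs and as black diamonds with ± SE for the edgeR fit with the batch term. The 3 *Blvrb* points fall between 0.71 and 0.78, the 3 *Steap4* points between -2.88 and -1.85, and the points of *Hmox1*, *Slc11a1* and *Fth1* fall on both sides of 0.

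*Fth1* (chr19:9980598-9985098), the ferritin heavy chain that oxidizes iron for storage, was among the most abundant mRNAs of both subsets and was even between them. It measured 5869, 6838 and 1790 CPM in F4/80high and 6672, 6293 and 1641 CPM in F4/80low. Among the 14776 genes, its level per kilobase ranked 1, 2 and 10 for F4/80high TAMs and 1, 1 and 13 for F4/80low TAMs. The pair ratios were 0.880, 1.09 and 1.09, and edgeR gave a log2 change of 0.022 ± 0.20 (SE, adjusted p = 0.990), the smallest of the 9.

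*Ftl1* (chr7:45457944-45459884), the light chain that forms the mineral core, measured 2020, 3369 and 304 CPM in F4/80high and 1864, 2455 and 246 CPM in F4/80low. It was above F4/80low in each pool by small factors, 1.08, 1.37 and 1.23, while its level differed more between pools. The 3 log2 ratios had a mean of 0.29 and an SD of 0.17. A log2 change of 0.31 ± 0.26 was fitted (SE, edgeR, adjusted p = 0.794), and with the replicate block 0.29 ± 0.17 (adjusted p = 0.635). Leaving out F4/80high replicate 2, with its F4/80low partner kept, gave 0.042, while the log2 ratios of pairs 1 and 3 were 0.12 and 0.30. Reads may be shared with near-identical processed copies, of which 3 for *Ftl1* and 1 for *Fth1* had counts. The 3 copies of *Ftl1* summed to between 1.14% and 7.02% of its counts, and adding them gave a log2 fold change of 0.29.

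The ferritin genes separated the pools more than the subsets. *Fth1* and *Ftl1* together took 1.05% to 1.23% of the counts on tested genes in the 4 libraries of replicates 1 and 2 and 0.114% and 0.135% in those of replicate 3. The ratio of *Fth1* to *Ftl1* counts, which no scaling between libraries can alter, was 2.91, 2.03 and 5.89 for F4/80high TAMs and 3.58, 2.56 and 6.66 for F4/80low TAMs. The heavy chain was thus in larger excess in both replicate 3 libraries, and F4/80low had the higher ratio in each pool. Since replicate 3 alone forms batch 2, its experiment and its batch cannot be told apart.

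*Slc40a1* (chr1:45908068-45926523), the iron exporter, measured 36.7, 16.7 and 3.02 CPM in F4/80high and 76.8, 21.5 and 3.53 CPM in F4/80low. F4/80low was higher in each pool, but both subsets were highest in replicate 1 and lowest in replicate 3, and the pools differed more than the subsets. F4/80low exceeded F4/80high 2.09-fold (95% counting interval 1.96 to 2.23), 1.29-fold (1.17 to 1.42) and 1.17-fold (0.678 to 2.02), the last from 28 and 31 counts. A log2 change of -0.71 ± 0.50 was fitted (SE, edgeR, adjusted p = 0.750). Without F4/80low replicate 1 that fit, which kept the F4/80high library of the same pool, gave 0.11, while the log2 ratios of the other 2 pairs were -0.36 and -0.22.

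Uptake set against export gives a ratio that is free of scaling. Per kilobase, *Tfrc* stood at 1.49, 3.14 and 36.8 times *Slc40a1* in F4/80high and at 0.614, 1.99 and 13.4 times in F4/80low. The ratio was higher in F4/80high in each pool, by 2.42, 1.58 and 2.75 times. It was chosen after its values were seen and was not tested.

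For most of the 9 genes the range of the pool means was wider than the mean difference between the subsets. The mean of a pool spanned a factor of 159 for *Steap4*, 16.3 for *Slc40a1*, 10.5 for *Ftl1*, 5.94 for *Hmox1*, 3.83 for *Fth1* and 2.45 for *Blvrb*, and 1.53 to 1.69 for *Tfrc*, *Steap3* and *Slc11a1*. The subsets differed by a factor of 4.59 for *Steap4* and of at most 1.68, that of *Blvrb*, for the rest, as the mean over pairs. Scaled by library size alone, the span between pools was 328 for *Steap4* and 33.6 for *Slc40a1*, so the size of these spans depends on the scaling.

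Per kilobase of the deposited gene length, the order of the mean level over the 6 libraries was *Fth1* (5601 ± 2831 SD, n = 6), *Ftl1* (1276 ± 917), *Hmox1* (84.9 ± 75.2), *Slc11a1* (48.2 ± 14.9), *Blvrb* (22.3 ± 11.9), *Steap4* (6.67 ± 10.9), *Tfrc* (6.58 ± 2.87), *Steap3* (3.07 ± 1.19) and *Slc40a1* (2.93 ± 3.08), in CPM per kilobase. The neighbours *Fth1* and *Ftl1*, *Ftl1* and *Hmox1*, *Slc11a1* and *Blvrb*, and *Tfrc* and *Steap3* kept this order in 6 of 6 libraries. *Hmox1* stood above *Slc11a1* in 4 of 6 libraries and *Steap3* above *Slc40a1* in 4 of 6. *Steap4* stood below *Blvrb* in 5 of 6 libraries and above *Tfrc* in 2 of 6, and it ranked from 1791 in F4/80low replicate 1 to 13283 in F4/80high replicate 3. These neighbours do not differ beyond their spread.

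**Figure D3:**
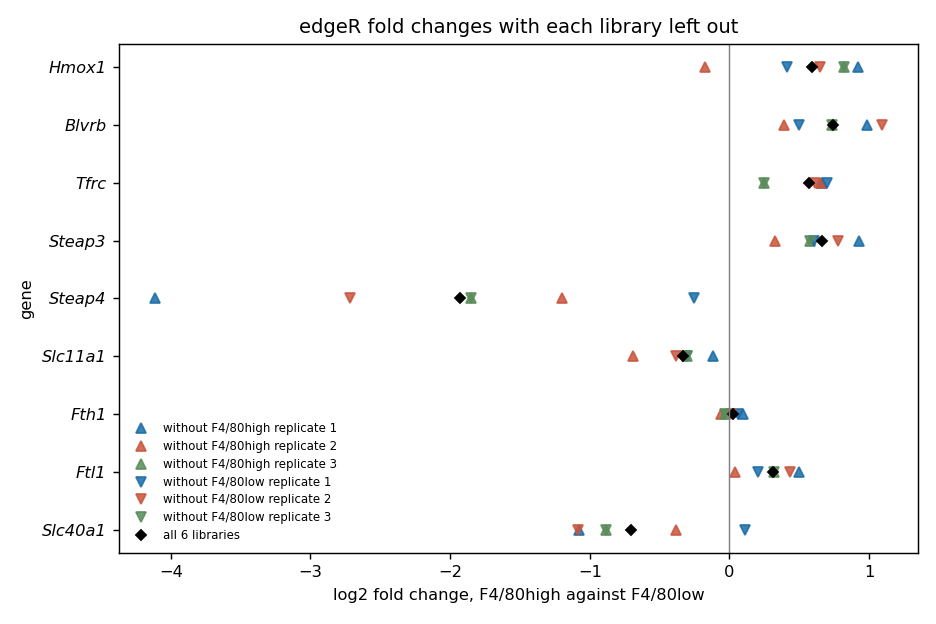
Log2 fold change of F4/80high against F4/80low (x axis; edgeR with the batch term) of each of the 9 genes with all 6 libraries (black diamonds) and with each library left out in turn (triangles, up for an F4/80high and down for an F4/80low library). *Steap4* ranges from -4.11 to -0.25, and *Hmox1*, *Slc40a1* and *Fth1* cross 0 when 1 library is left out. *Blvrb*, *Tfrc*, *Ftl1* and *Steap3* stay above 0. The partner of the library left out was kept in each fit.

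The wider pathway was read from a list of 62 other iron and heme genes in 9 roles, of which 56 were tested. *Cybrd1*, *Heph* and *Hamp* did not pass the filter, *Hamp* with 0 counts where 3 counts are 0.0582 to 0.342 CPM per library, and *Ftmt*, *Hamp2* and *Hfe2* were not analysed here. Of the 56, 30 had a positive and 26 a negative log2 fold change, with a median of 0.036. At an unadjusted p under 0.05 there were 5 higher and 3 lower in F4/80high (8 of 56, or 14.3%, where 7.57% of all genes were), and none was called by edgeR with the batch term. DESeq2 with the batch called 1 of the 56, *Lcn2* (adjusted p = 0.0307).

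Heme capture held the 2 largest fold changes of the 56. *Cd163*, the receptor for hemoglobin bound to haptoglobin, measured 10.9, 65.1 and 7.45 CPM in F4/80high and 1.83, 11.9 and 0.228 CPM in F4/80low. F4/80high exceeded F4/80low 5.97-fold, 5.46-fold and 32.7-fold, the last with a counting interval of 8.72 to 276 from 2 counts in F4/80low. *Hp*, haptoglobin itself, measured 169, 41.8 and 20.4 CPM in F4/80high and 487, 154 and 74.9 CPM in F4/80low. The receptor and its ligand thus differed in opposite directions in each pool. The log2 fold changes were 2.89 ± 0.87 (SE, edgeR, adjusted p = 0.511; replicate block, adjusted p = 0.0333) and -1.69 ± 0.54 (adjusted p = 0.530; replicate block, adjusted p = 0.0281). Of the 8 genes of this role 5 were positive and 3 negative, with a median of 0.16.

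*Lcn2*, lipocalin 2, binds the siderophores through which bacteria take iron and is abundant in neutrophils. It measured 104, 48.6 and 28.3 CPM in F4/80high and 266, 146 and 60.1 CPM in F4/80low, lower in F4/80high in each pool (log2 fold change -1.32 ± 0.35 SE, edgeR, adjusted p = 0.471; replicate block, adjusted p = 0.0363). *Hp* is a monocyte and neutrophil product as well and stands on the monocyte marker list, and *Hp*, *Lcn2*, *Steap4* and the summed neutrophil markers were each highest in the replicate 1 pair, lowest in the replicate 3 pair and lower in F4/80high in each pool. The monocyte markers, 7 of 8 with a negative log2 fold change, summed to 2120, 2749 and 5168 CPM in F4/80high and 3296, 2820 and 9000 CPM in F4/80low. The eosinophil, mast cell and basophil sums given for *Steap4* were lower in F4/80high in each pool too. The part of these cell types in the *Hp* and *Lcn2* differences was not tested.

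Among the other uptake genes 6 of 7 had a positive log2 fold change, with a median of 0.52. *Slc39a8*, a zinc transporter that also carries iron, measured 5.82, 23.3 and 6.59 CPM in F4/80high and 3.23, 7.93 and 1.48 CPM in F4/80low (log2 fold change 1.60 ± 0.59 SE, edgeR, adjusted p = 0.591). It was higher in F4/80high in 3 of 3 pairs. Of the other reductases, 3 of 3 were negative, among them *Cyb561a3*, a lysosomal ferrireductase, at 29.7, 16.1 and 1.51 CPM against 36.8, 27.9 and 7.29 (log2 fold change -0.96 ± 0.42 SE, edgeR, adjusted p = 0.654).

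In heme synthesis 6 of 11 genes were positive and 5 negative, with a median of 0.073. *Uros*, uroporphyrinogen III synthase, measured 11.5, 13.9 and 5.29 CPM in F4/80high and 6.76, 7.27 and 1.02 CPM in F4/80low, higher in F4/80high in each pool (log2 fold change 1.26 ± 0.42 SE, edgeR, adjusted p = 0.536). *Slc25a38*, the mitochondrial glycine carrier, measured 24.0, 15.3 and 9.72 CPM against 30.2, 25.8 and 12.6, lower in each pool (-0.47 ± 0.28 SE). In mitochondrial iron and iron-sulfur assembly 5 of 12 genes were positive and 7 negative, with a median of -0.050 and none at an unadjusted p under 0.05. *Slc25a37*, the iron importer mitoferrin 1, had a log2 fold change of -0.47 ± 0.25 (SE) and *Isca2*, an iron-sulfur assembly factor, of 0.41 ± 0.27 (SE).

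In storage and export the other genes had small fold changes. The iron chaperones *Pcbp1* and *Pcbp2* had log2 fold changes of 0.13 ± 0.21 (SE) and -0.13 ± 0.27 (SE), and the ferroxidase *Cp*, which works with ferroportin, had 0.26 ± 0.30 (SE). Of the 9 regulators tested, 5 were positive and 4 negative, and 2 positive genes had an unadjusted p under 0.05, among them *Ireb2*. *Ireb2* encodes iron regulatory protein 2, which binds the hairpins shown above, and measured 30.2, 44.6 and 81.6 CPM in F4/80high and 26.7, 25.8 and 43.4 CPM in F4/80low (log2 fold change 0.64 ± 0.25 SE, edgeR, adjusted p = 0.615). *Fbxl5*, the iron-sensing subunit that marks Ireb2 protein for degradation, measured 130, 140 and 86.4 CPM in F4/80high and 303, 112 and 138 CPM in F4/80low (-0.64 ± 0.34 SE, edgeR, adjusted p = 0.699). *Ireb2* was higher in F4/80high in each pool, and *Fbxl5* was lower in 2 of 3.

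**Figure D4:**
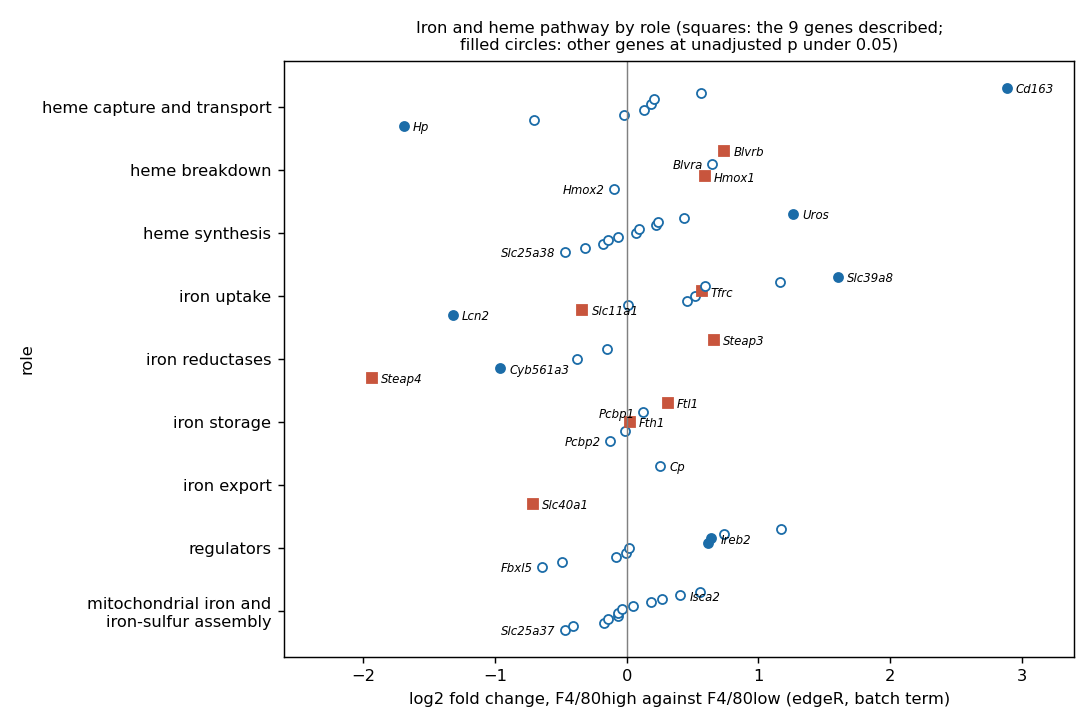
Log2 fold change of F4/80high against F4/80low (x axis; edgeR with the batch term) of the 9 genes described (squares) and of the 56 other iron and heme genes tested (circles, filled at an unadjusted p under 0.05), by role (y axis). *Cd163* at 2.89 and *Steap4* at -1.93 lie farthest apart, and the mitochondrial genes lie close to 0.

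The genes most like each member were found by the root mean square difference of their log2 CPM, centred on batch means, over the 6 libraries and 8825 genes whose log2 CPM averaged 3 or more. They were *Gpt2* (0.055) and *Plxdc1* (0.11) for *Hmox1*, and *Dnajb13* (0.058) and *Tmem119* (0.059) for *Blvrb*. For *Tfrc* they were *Pggt1b* (0.029) and *Suv420h2* (0.051), and for *Steap3* they were *Hexa* (0.033) and *Slc17a5* (0.046). *Fth1* was closest to *Ube2d3* (0.013) and *2510039O18Rik* (0.015), *Ftl1* to *Psmd12* (0.021), and *Slc11a1* to *Itgb2* (0.067) and *Adam8* (0.076). The closest genes lay farther off for *Slc40a1*, with *Csrnp1* (0.12) and *Tbc1d4* (0.12), and farthest for *Steap4*, with *Cd209a* (0.35) and *Ccl22* (0.40). With 6 points per gene, small distances are found for many genes, and a gene that varied little, such as *Fth1*, is close to any other that did.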

How the data were processed

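Bulk RNA-seq was measured in 3 F4/80high and 3 F4/80low libraries. The authors deposited raw read counts per gene, with gene length and biotype, made by their sequencing center's standard pipeline. The aligner, annotation, counting rule and strand are not given in the sources used here. Gene IDs were matched to GENCODE M21 on GRCm38 (99.4% of 23424 IDs), which gave positions and transcript sequences. Counting may split the reads of genes with near-identical copies, so the ferritin copies, found by their M21 symbols, were also summed.

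Of 15989 genes labelled protein-coding in the tables, 14776 with at least 10 counts over the 6 libraries were tested in R 4.3.3 with edgeR 4.0.16 (quasi-likelihood test, TMM, terms for batch and subset, Benjamini-Hochberg adjustment over all genes tested). The SE is the absolute log2 fold change divided by the square root of F. Calls needed an adjusted p below 0.05 and a log2 fold change beyond 1 in either direction. DESeq2 1.42.0 and 17 further settings were alternatives. Pair ratios are of CPM with no pseudocount, and log2 CPM for likeness used a prior count of 2. Steps were tested on simulated data. A level of 3 counts is 0.0582 to 0.342 CPM, which limits genes with few counts.

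Libraries of the same number were taken as pairs, since the study shows both subsets sorted from the same pooled samples. Deviations from subset means correlated at 0.745, 0.729 and 0.907 within pairs over 10089 genes. The batch difference was left in these deviations, and libraries of unlike number were not compared, so the correlations do not test the pairing. No library was a copy of another. The 9 genes and all lists were chosen with earlier results of these data known. Named beside them were, in each role, the gene with the smallest p in each direction, those called with the replicate block, and the 2 closest genes of each member, of which 1 is not reported here. Markers were read as lists.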

Additional observations from a re-analysis of the deposited data

How the results depend on the processing

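Of 164 values of single genes under 18 alternative settings and a second measure of level, 153 were counted as unchanged. A fold change was so counted if it kept its direction and its side of the threshold, whatever its size. A level was so counted if it kept its rank among the 9 genes. The count of all genes called was 0 with the batch term, 150 by DESeq2, 76 with the replicate block, 357 by DESeq2 with the replicate block, and 0 to 3 with 1 library left out. Of the 9 genes, 1 (*Steap4*) was called with the replicate block by either tool. The fits with 1 library left out used the batch term, which called 0 of the 9 with all libraries, and they called 0 too. The replicate block was not refitted with a library left out, so these fits do not test the *Steap4* call. The number at an unadjusted p under 0.05 was 0 with the batch term, 2 with the replicate block by either tool, and 0 to 4 with 1 library left out, the 4 without F4/80high replicate 1. For the other 56 pathway genes that number was 8 in the batch fit, 0 with no batch term, 3 without replicate 3 of both subsets and 3 to 12 with 1 library left out. *Steap4* passed the threshold with the replicate block in edgeR (adjusted p = 0.0448) and DESeq2 (adjusted p = 0.000167). No other call of the 9 changed with the block.

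The direction of *Fth1* turned with no batch term (-0.011) and without replicate 3 of both subsets (-0.028), and with 1 library left out it ranged from -0.061 to 0.098. *Hmox1* ranged from -0.18 to 0.92 and *Slc40a1* from -1.08 to 0.11. The order of *Steap3* and *Slc40a1* by level turned with TPM. Scaling by library size alone moved the median of all genes to 0.055. Depth limits *Steap4* and *Cd163* in replicate 3, and 3 pools limit every test: leaving out 1 library leaves that arm 2, with the spread shared by both arms.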
